A study of Mus musculus with 14 samples.

Results

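Oligodendrocyte lineage and myelin genes were followed in RNA sequencing libraries of mouse cerebellum from littermates that were wild type (WT) or knockout (KO) for Astn2. The list holds 34 genes of the 24100 in the count table, taken by name from precursor to myelinating stage, and all 34 were found by their Entrez gene number. The rule goes by gene name and uses no measured value. These 34 members, and the gene lists set beside them, were chosen with earlier results of these data known. All animals were 21 days old and carried the transgene Tg(Pcp2-L10a-EGFP), which puts a green fluorescent tag on ribosomal protein L10a under the promoter of Pcp2, a gene of Purkinje cells. In translating ribosome affinity purification (TRAP), tagged ribosomes are pulled down with antibodies against the tag and the RNA on them is sequenced. The input is 3% of the cleared homogenate set aside before the purification, and stands for the whole cerebellum. There were 4 WT input libraries (1 female, 3 male), 3 KO input libraries (2 female, 1 male), 3 WT TRAP libraries (1 female, 2 male) and 4 KO TRAP libraries (2 female, 2 male). The control groups carried the tag too, and no group without it was analysed here. Library totals ran from 18.8 to 54.2 M counts. No member fell below 11 counts in any library. Each group held libraries of both sexes, so each came from more than 1 animal. Nothing in the labels says that libraries of the same sex within a group came from separate animals. The p-values measure the spread between these libraries, which may in part be technical.

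Oligodendrocytes arise from precursor cells that divide and migrate, pass through a short newly formed stage, and then wrap axons in myelin, a stack of membrane held together by a few abundant proteins and rich in galactolipids. In the cerebellum they lie mainly in the white matter and along axons of the granular layer, and Purkinje cell axons are among those they wrap. Purkinje cells themselves are neurons and do not make myelin. Transcripts carried over from untagged cells and low expression in the tagged cells cannot be told apart in these TRAP libraries.

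The targeted gene followed the labels. Astn2 stood at 88.7, 95.1, 90.3 and 104 CPM (counts per 1e6 counts with TMM factors) in the 4 WT input libraries and at 0.729, 0.968 and 0.934 CPM in the 3 KO input libraries. Astn2 in TRAP stood at 117, 128 and 146 CPM in WT and at 1.33, 1.58, 2.11 and 1.06 CPM in KO. Purkinje cell markers checked the purification: all 8 rose in TRAP, by a median of 3.76 (log2) for WT and 3.55 for KO, from Itpr1 at 2.28 to Pcp2 at 4.99 in WT. Genes that mark Schwann cells, which make myelin outside the brain, summed to 1.26 to 3.51 CPM over 4 genes in any library. The oligodendrocyte markers Mbp and Mog were present in all 14 libraries, with the values given below under the myelin sheath proteins.

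Promoter sequences are shown first for 4 members that the TRAP comparison turns on. Mog is the marker of mature oligodendrocytes and Mobp one of the most depleted myelin genes, while Qdpr and Tspan2 rose in TRAP. RefSeq promoters of build GRCm38.p6 matched 24 of the 34 members, with 32 windows for the 24 genes, some of which overlap. Each window holds the 250 bases before a start site, on the strand of the gene. Capitals mark matches, on either strand, to any of 5 short motifs: the E-boxes CAGCTG and also CAGATG (bound by basic helix-loop-helix factors, the family of Olig1 and Olig2), the SOX core ACAAAG (the family of Sox10), the GC box GGGCGG and the ROR site AGGTCA.
Mog: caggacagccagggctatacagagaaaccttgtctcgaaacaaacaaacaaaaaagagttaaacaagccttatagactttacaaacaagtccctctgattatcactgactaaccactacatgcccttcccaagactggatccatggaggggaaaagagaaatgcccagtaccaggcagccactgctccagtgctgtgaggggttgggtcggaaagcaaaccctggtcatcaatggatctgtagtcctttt
Mobp: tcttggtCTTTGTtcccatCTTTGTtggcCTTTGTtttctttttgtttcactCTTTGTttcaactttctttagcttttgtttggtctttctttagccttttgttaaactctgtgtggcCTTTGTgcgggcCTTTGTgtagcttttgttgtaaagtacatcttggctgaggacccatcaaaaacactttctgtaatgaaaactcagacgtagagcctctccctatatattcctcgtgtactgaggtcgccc
Qdpr: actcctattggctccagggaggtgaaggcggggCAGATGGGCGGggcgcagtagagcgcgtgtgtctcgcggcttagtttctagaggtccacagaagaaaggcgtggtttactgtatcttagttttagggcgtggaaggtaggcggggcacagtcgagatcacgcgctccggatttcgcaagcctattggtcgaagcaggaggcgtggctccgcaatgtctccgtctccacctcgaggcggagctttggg
Tspan2: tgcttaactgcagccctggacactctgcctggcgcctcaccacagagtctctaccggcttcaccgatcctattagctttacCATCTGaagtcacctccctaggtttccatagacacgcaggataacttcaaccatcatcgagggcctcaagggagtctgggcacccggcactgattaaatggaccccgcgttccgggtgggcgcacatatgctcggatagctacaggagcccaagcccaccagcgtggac
The Mog window (chr17:37023399-37023648, minus strand) holds none of the 5 motifs. The Mobp window (chr9:120149492-120149741, plus strand) holds 6 copies of the SOX core on the reverse strand, printed as CTTTGT, within a run of similar T-rich repeats. The Qdpr window (chr5:45450230-45450479, minus strand) holds an E-box that runs into a GC box, printed as 1 stretch of capitals. The Tspan2 window printed (chr3:102734520-102734769, plus strand) holds 1 E-box on the reverse strand, printed as CATCTG. A second Tspan2 window (chr3:102734965-102735214), not printed, holds 1 SOX core and no E-box. Over all 32851 windows of the same length, the SOX core was in 16.5% and in 9 of the 32 member windows (28.1%, 7 genes). The E-box CAGATG was in 14.4% of all windows and in 9 of the 32 (28.1%, 9 genes). The E-box CAGCTG was in 13.00% of all windows and in 1 of the 32, that of Aspa. The GC box was in 32.7% of all windows against 8 of the 32, and the ROR site in 14.02% against 2 of the 32. A match describes letters in these windows and is not a bound site.

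In whole cerebellum the myelin sheath genes led the list. On the scale of CPM per kilobase of the longest annotated transcript, Mbp was the highest member in WT input at 256 ± 32.6 (mean ± SD, n = 4), followed by Cnp at 175 ± 19.2, Cldn11 at 159 ± 20.5, Mobp at 143 ± 8.28 and Mal at 122 ± 16.3. Mbp encodes myelin basic protein, which seals the cytoplasmic faces of the sheath, and Cldn11 the tight junction protein of myelin. Cnp and Cldn11, and Cldn11 and Mobp, differed by less than the larger of their SDs, while Mobp and Mal differed by more than either SD. At the other end stood Enpp6, a gene of newly formed oligodendrocytes, and both precursor genes. Enpp6 was at 2.69 ± 0.463, Pdgfra at 1.44 ± 0.267 and Cspg4 at 0.462 ± 0.0407, the lowest of the 34. Pdgfra encodes the growth factor receptor and Cspg4 the proteoglycan NG2 by which precursors are recognised. Together the 34 genes took 0.519% to 0.7295% of all counts in the 7 input libraries and 0.151% to 0.229% in the 7 TRAP libraries. A large part of the TRAP share came from Car2, Tspan2 and Qdpr, which rose in TRAP. Their means in WT TRAP were 550, 442 and 289 CPM, where the 34 genes summed to a mean of 2547 CPM. In WT input their means were 131, 260 and 109 CPM, where the 34 genes summed to a mean of 4954 CPM. In these bulk libraries, fewer cells of a type and less RNA per cell cannot be told apart.

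**Figure D1:**
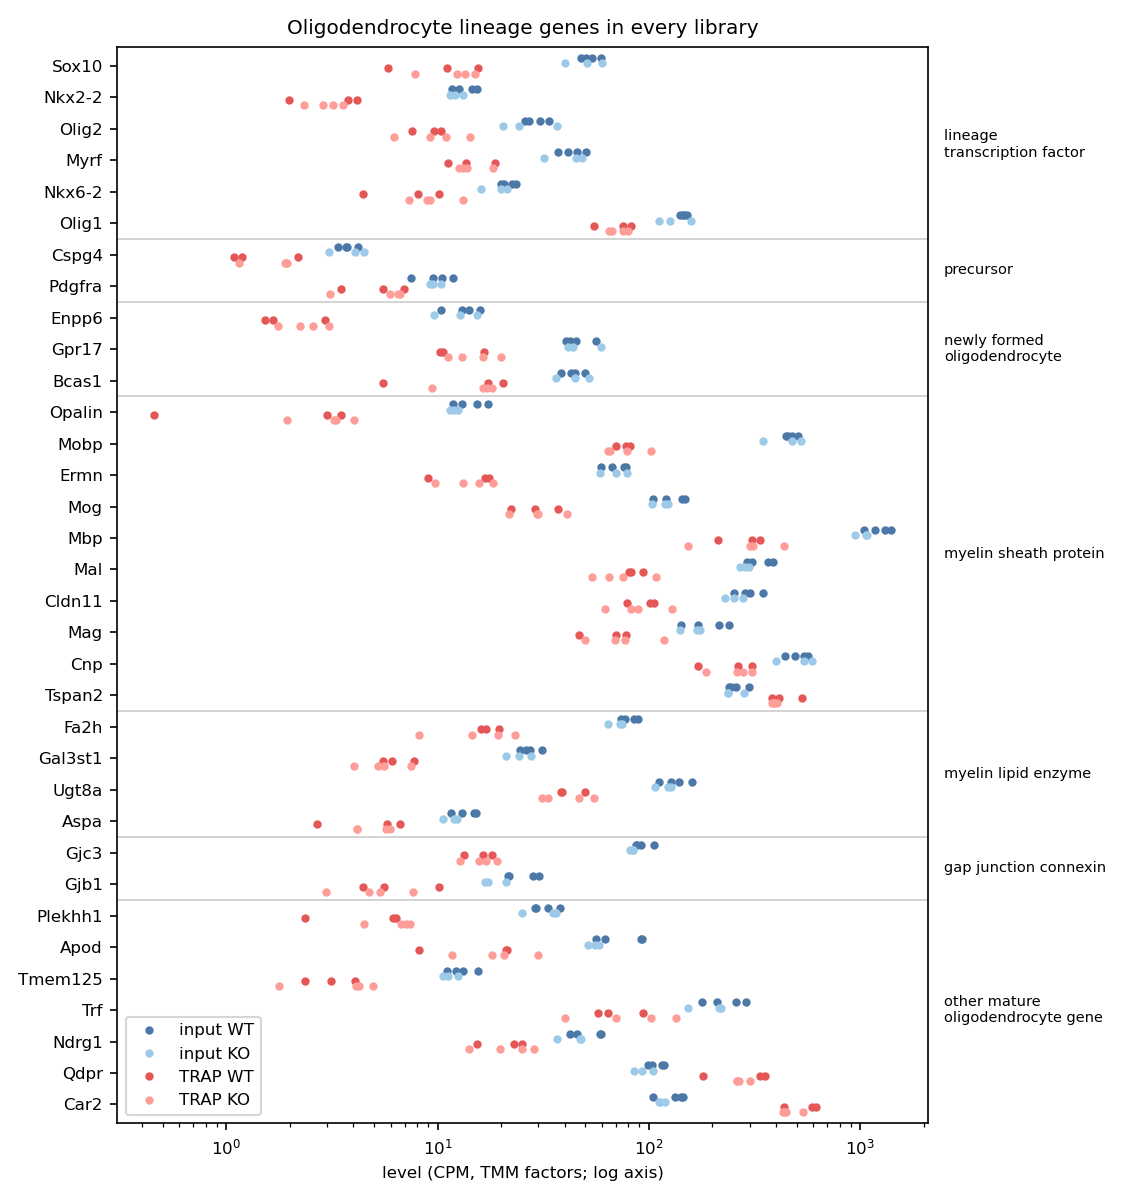
Level of each of the 34 genes in every library (CPM with TMM factors, log axis), 1 point per library, coloured by fraction and genotype and grouped by role. TRAP points lie to the left of input points for all genes but Tspan2, Qdpr and Car2, where they lie to the right.

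The first comparison asked what remains of oligodendrocyte transcripts after the Purkinje cell purification. In both genotypes 31 of the 34 members fell in TRAP and 3 rose: Car2, Qdpr and Tspan2. The log2 fold change of the median member was -1.80 for WT and -1.55 for KO, against -0.088 and -0.11 for all 16042 genes tested. Over all genes, 38.5% were called lower and 37.0% higher in WT at an adjusted p of 0.05, and 39.6% and 36.3% in KO (edgeR's quasi-likelihood test). The median member kept 28.96% of its input level in WT TRAP and 34.6% in KO TRAP. With library totals these shares were 16.6% and 20.8%. The largest adjusted p among the members was 0.00982 in WT and 0.0108 in KO, both for Pdgfra. The scaling sets the zero point of this comparison: with library totals in place of TMM factors, the whole distribution shifted, its median by -0.82 for WT and -0.73 for KO. The share of genes called lower and higher became 61.1% and 19.5% for WT and 60.3% and 19.5% for KO. Relative to the median of all genes, the median member was at -1.71 in WT with TMM factors and -1.71 with library totals, and at -1.44 and -1.44 in KO.

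All 6 lineage transcription factors fell in TRAP in both genotypes, with a median of -1.60 in WT and -1.51 in KO. Sox10, which switches on myelin genes together with Myrf, lay lowest in WT. Sox10 in input stood at 47.9, 50.6, 54.1 and 59.1 CPM in the 4 WT libraries and at 51.02, 40.2 and 60.2 CPM in the 3 KO libraries. Sox10 in TRAP stood at 15.6, 11.1 and 5.85 CPM in the 3 WT libraries and at 12.4, 13.4, 15.1 and 7.83 CPM in the 4 KO libraries. The groups did not overlap between the fractions in either genotype, and WT 3 was the lowest of the TRAP libraries. It was 5.02-fold lower in WT TRAP than in WT input (log2 fold change -2.33 ± 0.29 (SE), adjusted p = 6.76e-06) and 4.13-fold lower in KO (-2.05 ± 0.27, adjusted p = 1.01e-05, edgeR's quasi-likelihood test). Olig1, a basic helix-loop-helix factor of the lineage, lay highest of the 6. Olig1 in input stood at 145, 141, 147 and 152 CPM in the 4 WT libraries and at 127, 112 and 159 CPM in the 3 KO libraries. Olig1 in TRAP stood at 75.5, 82.7 and 55.1 CPM in the 3 WT libraries and at 79.8, 66.8, 75.8 and 64.8 CPM in the 4 KO libraries. The fractions did not overlap here either. It was 2.05-fold lower in WT TRAP than in WT input (log2 fold change -1.04 ± 0.15 (SE), adjusted p = 2.99e-05) and 1.85-fold lower in KO (-0.89 ± 0.15, adjusted p = 9.39e-05, edgeR's quasi-likelihood test). Between these stood Nkx2-2 at -2.08 ± 0.21 in WT, Olig2 at -1.64 ± 0.23, Myrf at -1.57 ± 0.19 and Nkx6-2 at -1.54 ± 0.25. An exon of Nkx6-2 overlaps one of Inpp5a on the opposite strand, and the mean of Inpp5a was 562 CPM in WT input and 7995 CPM in WT TRAP. Whether the counting used strand is not given in the sources used here, so reads of the shared exon cannot be told apart.

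Both precursor genes fell less than the typical member, with a median of -1.08 in WT and -0.997 in KO. This was not particular to the stage: Olig1, of another role, was at -1.04 in WT. The separate list of 15 further precursor and early genes, described below, had a median of -1.78 in WT and -1.63 in KO. Pdgfra in input stood at 7.51, 10.5, 9.54 and 11.9 CPM in the 4 WT libraries and at 9.26, 9.53 and 10.4 CPM in the 3 KO libraries. Pdgfra in TRAP stood at 5.54, 3.49 and 6.97 CPM in the 3 WT libraries and at 6.47, 5.97, 6.63 and 3.097 CPM in the 4 KO libraries. Its TRAP values lay below all input values of the same genotype, by a small margin in WT, and the library KO 4 was the lowest. It was 1.83-fold lower in WT TRAP than in WT input (log2 fold change -0.87 ± 0.27 (SE), adjusted p = 0.00982) and 1.76-fold lower in KO (-0.82 ± 0.26, adjusted p = 0.0108, edgeR's quasi-likelihood test). Without input KO replicate 3, the KO value of Pdgfra was -0.76 with an adjusted p of 0.0506 (edgeR's quasi-likelihood test). Cspg4 in input stood at 3.39, 4.19, 3.74 and 3.68 CPM in the 4 WT libraries and at 4.08, 3.07 and 4.48 CPM in the 3 KO libraries. Cspg4 in TRAP stood at 1.09, 1.18 and 2.198 CPM in the 3 WT libraries and at 1.91, 1.895, 1.94 and 1.15 CPM in the 4 KO libraries. Input and TRAP did not overlap, although all TRAP values were low. It was 2.45-fold lower in WT TRAP than in WT input (log2 fold change -1.29 ± 0.27 (SE), adjusted p = 0.000565) and 2.26-fold lower in KO (-1.18 ± 0.25, adjusted p = 0.000654, edgeR's quasi-likelihood test).

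The 3 genes of newly formed oligodendrocytes fell in TRAP in both genotypes, with a median of -1.87 in WT and -1.69 in KO. Enpp6, a choline phosphodiesterase that marks cells starting to myelinate, had the lowest value of all 34 members in WT. Opalin at -2.70 ± 0.44 and Plekhh1 at -2.69 ± 0.29 in WT differed from it by less than any of these SEs, so their order is uncertain. Enpp6 in input stood at 10.4, 13.02, 14.1 and 15.9 CPM in the 4 WT libraries and at 12.7, 9.58 and 15.4 CPM in the 3 KO libraries. Enpp6 in TRAP stood at 2.94, 1.52 and 1.66 CPM in the 3 WT libraries and at 1.75, 3.05, 2.23 and 2.57 CPM in the 4 KO libraries. No TRAP library reached the lowest input library. It was 6.598-fold lower in WT TRAP than in WT input (log2 fold change -2.72 ± 0.28 (SE), adjusted p = 8.63e-07) and 5.24-fold lower in KO (-2.39 ± 0.25, adjusted p = 1.02e-06, edgeR's quasi-likelihood test). Bcas1, a marker of early myelinating cells, lay highest of the 3. Bcas1 in input stood at 38.5, 42.6, 44.7 and 49.9 CPM in the 4 WT libraries and at 44.6, 36.3 and 52.2 CPM in the 3 KO libraries. Bcas1 in TRAP stood at 17.3, 20.3 and 5.52 CPM in the 3 WT libraries and at 16.4, 17.1, 18.2 and 9.42 CPM in the 4 KO libraries. WT 3 and KO 4 were the lowest TRAP libraries of their genotypes. It was 3.097-fold lower in WT TRAP than in WT input (log2 fold change -1.63 ± 0.35 (SE), adjusted p = 0.000745) and 2.901-fold lower in KO (-1.54 ± 0.32, adjusted p = 0.000713, edgeR's quasi-likelihood test). The value of Gpr17, a receptor that restrains maturation, was -1.87 ± 0.23 in WT and -1.69 ± 0.22 in KO.

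Of the 10 myelin sheath genes, 9 fell in TRAP and Tspan2 rose, in both genotypes. The group's median was -2.03 in WT and -1.86 in KO. Mbp in input stood at 1038, 1172, 1306 and 1395 CPM in the 4 WT libraries and at 1083, 946 and 1068 CPM in the 3 KO libraries. Mbp in TRAP stood at 308, 334 and 212 CPM in the 3 WT libraries and at 301, 309.9, 437 and 153 CPM in the 4 KO libraries. Mbp in KO TRAP ran from the KO 4 library, the lowest of all TRAP libraries, to the KO 3 library, the highest, with all input libraries above. It was 4.297-fold lower in WT TRAP than in WT input (log2 fold change -2.10 ± 0.28 (SE), adjusted p = 1.31e-05) and 3.45-fold lower in KO (-1.79 ± 0.27, adjusted p = 3.38e-05, edgeR's quasi-likelihood test). Mog encodes a glycoprotein of the outermost myelin layer. Mog in input stood at 105, 120.2, 148 and 143 CPM in the 4 WT libraries and at 119, 104 and 123 CPM in the 3 KO libraries. Mog in TRAP stood at 29.1, 37.3 and 22.4 CPM in the 3 WT libraries and at 29.99, 29.6, 41.1 and 21.8 CPM in the 4 KO libraries. KO 4 and KO 3 were again the lowest and the highest TRAP libraries. It was 4.31-fold lower in WT TRAP than in WT input (log2 fold change -2.11 ± 0.21 (SE), adjusted p = 8.27e-07) and 3.84-fold lower in KO (-1.94 ± 0.20, adjusted p = 1.05e-06, edgeR's quasi-likelihood test). Opalin, a sialylated membrane protein of mature oligodendrocytes, lay lowest of the sheath genes in WT. Opalin in input stood at 11.8, 13.04, 15.3 and 17.4 CPM in the 4 WT libraries and at 11.99, 12.5 and 11.5 CPM in the 3 KO libraries. Opalin in TRAP stood at 3.01, 3.49 and 0.456 CPM in the 3 WT libraries and at 3.24, 3.299, 4.05 and 1.95 CPM in the 4 KO libraries. Its value in TRAP WT 3 rests on 11 counts, the fewest of any member in any library. It was 6.51-fold lower in WT TRAP than in WT input (log2 fold change -2.70 ± 0.44 (SE), adjusted p = 7.46e-05) and 3.81-fold lower in KO (-1.93 ± 0.39, adjusted p = 0.000461, edgeR's quasi-likelihood test). Mobp followed at -2.61 ± 0.18 in WT and was the lowest member in KO at -2.55 ± 0.17. Cnp, a cyclic nucleotide phosphodiesterase of non-compact myelin, kept the most of the 9 sheath genes that fell, at -1.04 ± 0.22 in WT and -0.98 ± 0.21 in KO. Cnp shares exon sequence with Dnajc7 on the opposite strand, whose mean was 113 CPM in WT input and 183 CPM in WT TRAP, and 114 and 202 CPM in KO, so the place of Cnp in this order is uncertain.

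Tspan2, a tetraspanin made in oligodendrocytes and also in neurons, went the other way. Tspan2 in input stood at 238, 246, 259 and 297 CPM in the 4 WT libraries and at 236, 236 and 283 CPM in the 3 KO libraries. Tspan2 in TRAP stood at 381, 415 and 531 CPM in the 3 WT libraries and at 402, 381, 391 and 391 CPM in the 4 KO libraries. All TRAP libraries lay above all input libraries. It was 1.71-fold higher in WT TRAP than in WT input (log2 fold change 0.78 ± 0.11 (SE), adjusted p = 2.75e-05) and 1.53-fold higher in KO (0.62 ± 0.12, adjusted p = 0.000269, edgeR's quasi-likelihood test). With library totals the direction of Tspan2 turned, to -0.046 in WT (adjusted p = 0.705) and -0.12 in KO (adjusted p = 0.328, edgeR's quasi-likelihood test). Relative to the median of all genes it was at 0.86 in WT with TMM factors and at 0.86 with library totals. Its antisense partner Tspan2os had a mean of 0.325 CPM in WT input and 4.499 CPM in WT TRAP, far under the level of Tspan2.

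The 4 enzymes of myelin lipids fell in TRAP in both genotypes, with a median of -1.87 in WT and -1.82 in KO. Fa2h, the hydroxylase of myelin fatty acids, lay lowest in WT. Fa2h in input stood at 73.5, 77.3, 84.7 and 88.4 CPM in the 4 WT libraries and at 74.3, 63.96 and 72.9 CPM in the 3 KO libraries. Fa2h in TRAP stood at 19.6, 16.9 and 16.1 CPM in the 3 WT libraries and at 14.6, 19.3, 23.2 and 8.14 CPM in the 4 KO libraries. The fractions were apart in both genotypes, and KO 4 was lowest. It was 4.63-fold lower in WT TRAP than in WT input (log2 fold change -2.21 ± 0.26 (SE), adjusted p = 3.55e-06) and 4.31-fold lower in KO (-2.11 ± 0.24, adjusted p = 3.05e-06, edgeR's quasi-likelihood test). Aspa, which releases acetate from N-acetylaspartate for lipid synthesis, lay highest. Aspa in input stood at 13.01, 11.6, 14.8 and 15.3 CPM in the 4 WT libraries and at 12.03, 10.6 and 12.4 CPM in the 3 KO libraries. Aspa in TRAP stood at 6.63, 5.74 and 2.696 CPM in the 3 WT libraries and at 4.17, 5.72, 5.98 and 4.16 CPM in the 4 KO libraries. WT 3 was lowest here. It was 2.78-fold lower in WT TRAP than in WT input (log2 fold change -1.48 ± 0.26 (SE), adjusted p = 0.00013) and 2.32-fold lower in KO (-1.22 ± 0.24, adjusted p = 0.000399, edgeR's quasi-likelihood test). Gal3st1, which makes sulfatide, was at -2.09 ± 0.20 in WT, and Ugt8a, which makes galactosylceramide, at -1.65 ± 0.20. Both connexins fell as well. Gjc3 (a connexin of oligodendrocytes and Schwann cells) had the smallest adjusted p of the falling members in WT. Gjc3 in input stood at 86.9, 87.6, 92.2 and 106 CPM in the 4 WT libraries and at 84.5, 84.02 and 81.4 CPM in the 3 KO libraries. Gjc3 in TRAP stood at 16.5, 18.01 and 13.4 CPM in the 3 WT libraries and at 15.7, 16.95, 19.1 and 12.7 CPM in the 4 KO libraries. Its TRAP values were tightly grouped and far from input. It was 5.86-fold lower in WT TRAP than in WT input (log2 fold change -2.55 ± 0.15 (SE), adjusted p = 4.57e-09) and 5.17-fold lower in KO (-2.37 ± 0.14, adjusted p = 6.18e-09, edgeR's quasi-likelihood test). Gjb1 in input stood at 21.9, 21.6, 28.2 and 30.2 CPM in the 4 WT libraries and at 21.2, 16.8 and 17.3 CPM in the 3 KO libraries. Gjb1 in TRAP stood at 5.61, 4.45 and 10.2 CPM in the 3 WT libraries and at 4.76, 5.33, 7.68 and 2.96 CPM in the 4 KO libraries. Gjb1, the connexin that couples myelin layers, varied more, with WT 3 the highest TRAP library and KO 4 the lowest. It was 3.71-fold lower in WT TRAP than in WT input (log2 fold change -1.89 ± 0.30 (SE), adjusted p = 6.72e-05) and 3.64-fold lower in KO (-1.86 ± 0.29, adjusted p = 5.28e-05, edgeR's quasi-likelihood test).

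Of the 7 other genes of mature oligodendrocytes, 5 fell and 2 rose in both genotypes. Plekhh1 lay lowest in WT. Plekhh1 in input stood at 28.8, 29.2, 33.3 and 38.2 CPM in the 4 WT libraries and at 36.3, 25.2 and 35.1 CPM in the 3 KO libraries. Plekhh1 in TRAP stood at 6.36, 2.36 and 6.18 CPM in the 3 WT libraries and at 4.48, 7.09, 7.39 and 6.73 CPM in the 4 KO libraries. WT 2 was the lowest library, and no TRAP library reached the input range. It was 6.44-fold lower in WT TRAP than in WT input (log2 fold change -2.69 ± 0.29 (SE), adjusted p = 1.57e-06) and 5.08-fold lower in KO (-2.34 ± 0.26, adjusted p = 2.37e-06, edgeR's quasi-likelihood test). Apod, a lipid-binding apolipoprotein, was at -2.17 ± 0.36 in WT, Tmem125 at -2.05 ± 0.29, the iron carrier Trf at -1.74 ± 0.34 and Ndrg1 at -1.28 ± 0.24. Car2, carbonic anhydrase II, rose the most of all 34 members. Car2 in input stood at 104, 133, 141 and 146 CPM in the 4 WT libraries and at 112, 112 and 119 CPM in the 3 KO libraries. Car2 in TRAP stood at 436, 621 and 594 CPM in the 3 WT libraries and at 537, 433, 437 and 444 CPM in the 4 KO libraries. Every TRAP library was above every input library, and KO 1 stood above the other 3 KO TRAP libraries. It was 4.23-fold higher in WT TRAP than in WT input (log2 fold change 2.08 ± 0.13 (SE), adjusted p = 9.66e-09) and 3.98-fold higher in KO (1.99 ± 0.14, adjusted p = 3.15e-08, edgeR's quasi-likelihood test). Qdpr, the dihydropteridine reductase that regenerates tetrahydrobiopterin, rose too. Qdpr in input stood at 103, 99.03, 118 and 116 CPM in the 4 WT libraries and at 92.5, 84.6 and 105 CPM in the 3 KO libraries. Qdpr in TRAP stood at 334, 353 and 180.0 CPM in the 3 WT libraries and at 302, 261, 267 and 261 CPM in the 4 KO libraries. WT 3 was the lowest TRAP library and still above all input libraries. It was 2.65-fold higher in WT TRAP than in WT input (log2 fold change 1.40 ± 0.19 (SE), adjusted p = 1.15e-05) and 2.91-fold higher in KO (1.54 ± 0.20, adjusted p = 7.71e-06, edgeR's quasi-likelihood test). With library totals both stayed higher in TRAP, Car2 by 1.26 in WT and 1.25 in KO, and Qdpr by 0.58 and 0.81 on the log2 scale. An exon of Qdpr overlaps one of Gm42413 on the opposite strand, which has no value here.

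**Figure D2:**
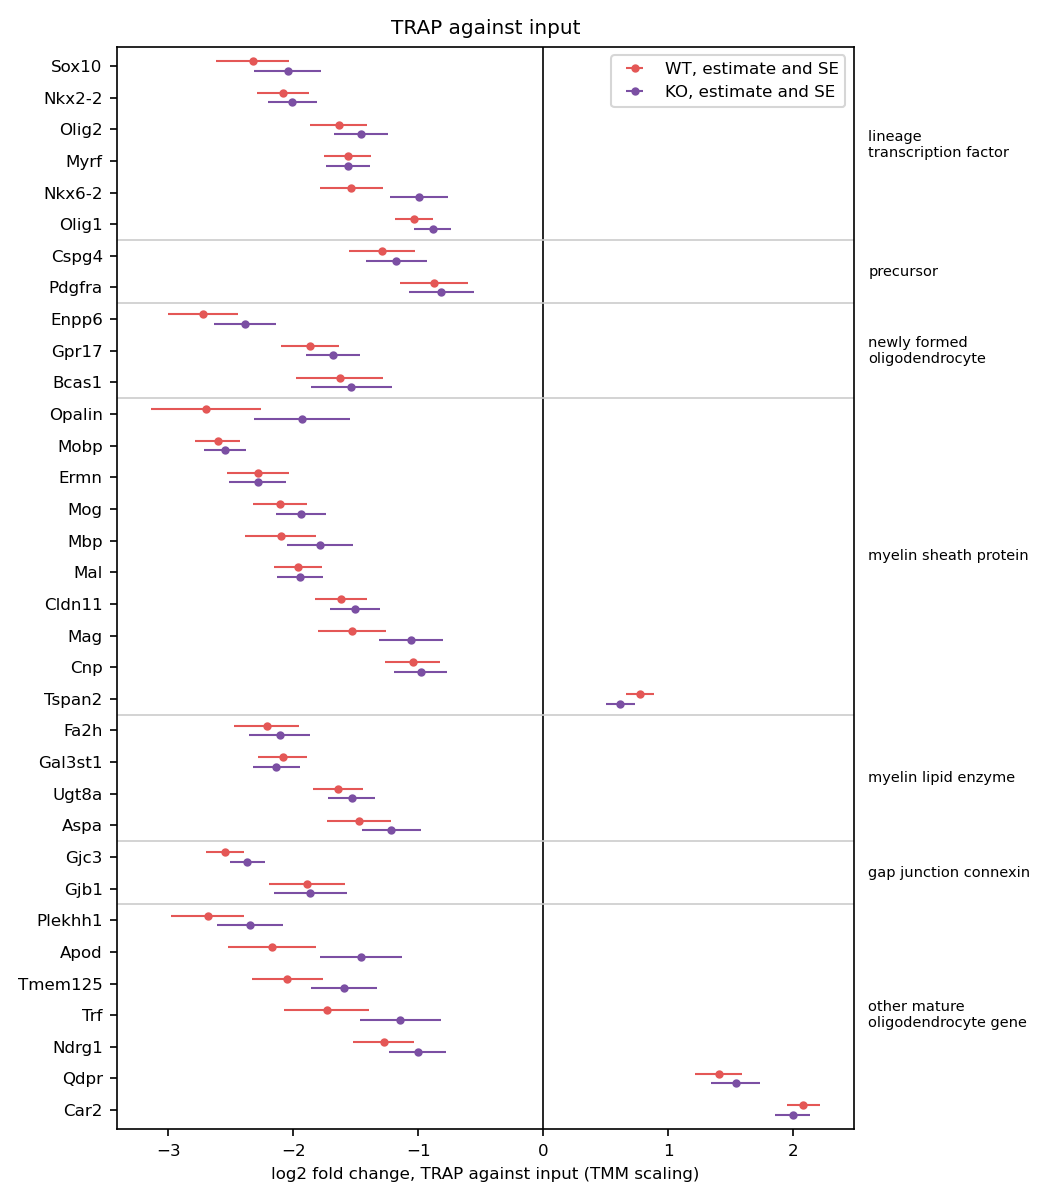
Log2 fold change of TRAP against input for the 34 genes in WT and KO, with standard errors, grouped by role. 31 genes lie below 0 in both genotypes, and Tspan2, Qdpr and Car2 above 0.

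Further genes of the lineage, from a separate list, moved in the same direction for the most part. Of 25 further oligodendrocyte genes, 20 were lower and 2 higher in WT TRAP, and 20 lower and 3 higher in KO, with a median of -1.91 and -1.64. Those higher were Adamts4 and Galc in both genotypes and Josd2 in KO, the last 2 named after their values were seen. The lowest in WT was Erbb3, a neuregulin receptor, at -3.16 ± 0.44. The highest was Adamts4, a protease, at 0.77 ± 0.24 (adjusted p = 0.00949, edgeR's quasi-likelihood test). Of 15 further precursor and early genes, 12 were lower in WT TRAP and 3 higher, and 12 and 2 in KO, with a median of -1.78 in WT and -1.63 in KO. The genes higher in both were Lhfpl3 and Fyn, with Sirt2 in WT, the last 2 named after their values were seen. Tnr, which encodes tenascin R, was lowest at -3.86 ± 0.38, and Lhfpl3 highest at 1.02 ± 0.11 (adjusted p = 1.08e-06, edgeR's quasi-likelihood test). Genes of sterol synthesis, which oligodendrocytes use heavily but every cell needs, had a median nearer to 0. In WT 7 of 15 were lower and 0 higher, with 8 at an unadjusted p under 0.05 and a median of -0.45, from Cyp51 at -1.36 ± 0.22 to Mvd at 0.072 ± 0.15. In KO 7 were lower and 0 higher, with 7 at an unadjusted p under 0.05 and a median of -0.35.

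Markers of the other untagged cells of the cerebellum fell in TRAP as well. In WT, 8 of 8 granule cell, 8 of 8 astroglial, 7 of 8 microglial, 8 of 8 endothelial and 6 of 6 mural cell genes were called lower and none higher, and in KO 8, 8, 7, 5 and 5 (edgeR's quasi-likelihood test). The median was -2.27 in WT and -2.15 in KO for the granule cell genes, from Etv1 at -3.03 ± 0.19 to Zic2 at -1.28 ± 0.22 in WT. For the astroglial genes it was -1.88 in WT and -1.77 in KO, from Slc1a2 at -2.66 ± 0.22 to Aldh1l1 at -0.99 ± 0.20. For the microglial genes it was -2.07 in WT and -1.86 in KO, with P2ry12 lowest at -2.71 ± 0.28. Endothelial genes had -1.70 in WT and -1.34 in KO, from Slco1a4 at -2.92 ± 0.36 to Cldn5 at -0.80 ± 0.25, and mural cell genes -1.73 in WT and -1.64 in KO, from Kcnj8 at -2.22 ± 0.41 to Higd1b at -1.27 ± 0.44. The median of the 34 members, -1.80 in WT and -1.55 in KO, lay within the range of these medians. No difference between the lists was tested. Of 6 choroid plexus genes, 1 was lower and 1 higher in WT and 5 lower and 1 higher in KO, with medians of -1.31 and -3.84, from Kcnj13 at -2.25 ± 1.11 to Clic6 at 3.09 ± 0.48 in WT.

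What remained of the members varied between TRAP libraries, and the granule cell, astroglial and microglial lists were lower in the 2 lowest of them than in the other 5. The mean over the 34 genes of log2(CPM + 1) in TRAP ran from 4.19 in KO 4 and 4.28 in WT 3 to 4.92 in KO 3, with 4.53 in KO 1, 4.67 in KO 2, 4.71 in WT 1 and 4.59 in WT 2. KO 3 was the highest TRAP library for 20 members, and KO 4 and WT 3 were the lowest for 13 each. Granule cell genes were at 6.23 in KO 4 and 6.20 in WT 3, against 6.70 to 7.09 in the other 5 TRAP libraries. Astroglial genes were at 4.56 in both of these libraries, against 4.97 to 5.52 in the other 5, and microglial genes at 1.12 and 1.23 against 1.36 to 1.63. Endothelial genes did not keep this order: they were lowest in KO 4 at 0.75, but KO 3 was next at 0.93 and WT 3 was at 1.06, within the 0.96 to 1.29 of the other 4. Mural cell genes were at 1.07 in KO 4 and 1.40 in WT 3, against 1.41 to 1.80. Among the members, the precursor genes and the connexins had their highest WT level in WT 3, at 2.34 and 3.67. Purkinje cell genes stayed between 12.67 and 12.91. Without KO 4 and WT 3, 31 members were still lower and 3 higher in both genotypes, with a median of -1.74 in WT and -1.41 in KO. In input the same mean ran from 5.73 in KO 2 to 6.21 in WT 4. The median SD of log2 levels over the members was 0.39 in WT TRAP and 0.38 in KO TRAP, against 0.19 and 0.18 in input.

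**Figure D3:**
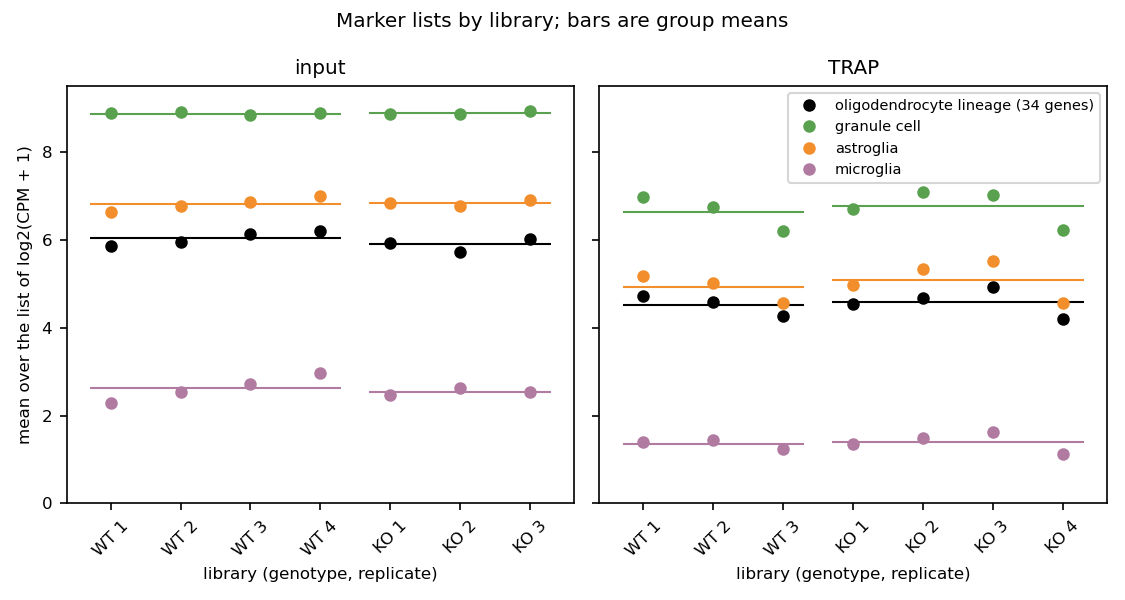
Mean over each marker list of log2(CPM + 1) in every library, with input on the left and TRAP on the right, and bars at the group means. In TRAP, the libraries WT 3 and KO 4 are lowest for the oligodendrocyte lineage, granule cell, astroglial and microglial lists.

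The second comparison asked whether loss of Astn2 changed the lineage in whole cerebellum. None of the 34 members passed the threshold in input (edgeR's quasi-likelihood test, sex as a covariate, adjusted p under 0.05), where 0.0188% of 15997 genes did. At an unadjusted p under 0.05 there was 1 member, against 13.7% of all genes. DESeq2's Wald test also called 0 members and had 1 at an unadjusted p under 0.05. Over all genes it called 294, and its share of all genes at that unadjusted p is not given here. The median member log2 fold change, KO against WT, was -0.090 with a median SE of 0.11, and the median of all genes was -0.0085. Of the members 22 were negative and 12 positive, and of all genes 52.2% were negative. With each input library left out in turn the member median ran from -0.15 to 0.0063, the highest being without KO 3.

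By role, the 5 precursor and newly formed genes were positive and most mature genes negative, none past the threshold. The signs of the 5 depended on the sex term: without it, 3 of them were negative, with a median of -0.0031 against 0.12 with it. The medians in input were 0.12 for the 2 precursor genes, 0.12 for the 3 newly formed genes, -0.029 for the transcription factors, -0.070 for the sheath genes, -0.14 for the lipid enzymes, -0.30 for the connexins and -0.16 for the other mature genes. Mbp was at -0.17 ± 0.10 (adjusted p = 0.492, edgeR's quasi-likelihood test) and Mog at -0.051 ± 0.11 (adjusted p = 0.873). Gjb1 had the smallest p, with the input values given above, in which all 3 KO libraries lay below all 4 WT libraries. Its log2 fold change was -0.45 ± 0.17, with an unadjusted p of 0.0275 and an adjusted p of 0.312 (edgeR's quasi-likelihood test). Gjc3, at -0.16 ± 0.093 (adjusted p = 0.488), was the other member whose KO libraries all lay below the WT libraries, so 2 of 34 (5.88%) did so, against 4.24% of all genes, and 0 members lay above, against 6.10%. Qdpr came next by p at -0.16 ± 0.085 (unadjusted p = 0.0928, adjusted p = 0.444), and its KO and WT values overlapped. Apod in input stood at 56.4, 61.8, 91.8 and 93.1 CPM in the 4 WT libraries and at 55.5, 57.8 and 51.6 CPM in the 3 KO libraries. Apod in TRAP stood at 21.1, 21.4 and 8.21 CPM in the 3 WT libraries and at 18.1, 20.6, 29.8 and 11.7 CPM in the 4 KO libraries. WT 3 and WT 4 were well above the other 5 input libraries, and the genotypes overlapped in both fractions (-0.37 ± 0.20, unadjusted p = 0.1005, adjusted p = 0.455, edgeR's quasi-likelihood test). Without input KO replicate 3, the only KO male, the value of Apod was 0.028.

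Sex was unevenly spread over the input groups, and its effect on the members was not tested. In WT input the 1 female library was below all 3 male libraries for 26 of 34 members. In KO input the 1 male library was above both female libraries for 25, with 19 members in both counts. With only 1 WT female and 1 KO male, sex cannot be told apart from differences between single libraries. In TRAP the member mean of log2(CPM + 1) was 4.71 in the WT female, against 4.59 and 4.28 in the WT males. It was 4.53 and 4.67 in the KO females, and 4.92 and 4.19 in the KO males. Without sex as a covariate, 32 members were negative in input, the median was -0.18, 6 had an unadjusted p under 0.05 and 0 passed the threshold. The shares of all genes that were negative or had such a p are not given for this fit, so these counts have no background beside them. KO 2 was the lowest input library for 26 members and WT 4 the highest for 18. Astroglial genes in input ran from 6.62 in WT 1 to 7.01 in WT 4 and microglial genes from 2.29 to 2.98 in the same libraries, while granule cell genes stayed between 8.83 and 8.93. Of the 8 endothelial genes, all were negative in KO input, 5 had an unadjusted p under 0.05, 0 passed the threshold and the median was -0.60, down to -0.84 ± 0.23 for Cldn5 (adjusted p = 0.218, edgeR's quasi-likelihood test). Their mean level was 1.90 to 2.30 in WT and 1.51 to 1.87 in KO. Choroid plexus genes, of a tissue that lies against the cerebellum, were at 5.13 in KO 2 against 1.54 to 4.08 in the other input libraries. The part of these cells in the member values was not tested.

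The other lists of the lineage gave 0 calls in input too. Of 25 further oligodendrocyte genes, 23 were negative in KO, 5 had an unadjusted p under 0.05 and the median was -0.16. Of 15 further precursor and early genes, 2 were negative, 1 had an unadjusted p under 0.05 and the median was 0.089. Of the 15 sterol synthesis genes, 12 were negative, 1 had an unadjusted p under 0.05 and the median was -0.030 (edgeR's quasi-likelihood test). Over all genes in the same comparison, 52.2% were negative and 13.7% had an unadjusted p under 0.05. These lists share the input libraries of the members, so their signs are not independent of the members' signs. Their signs without the sex term, or with a library left out, are not given here.

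**Figure D4:**
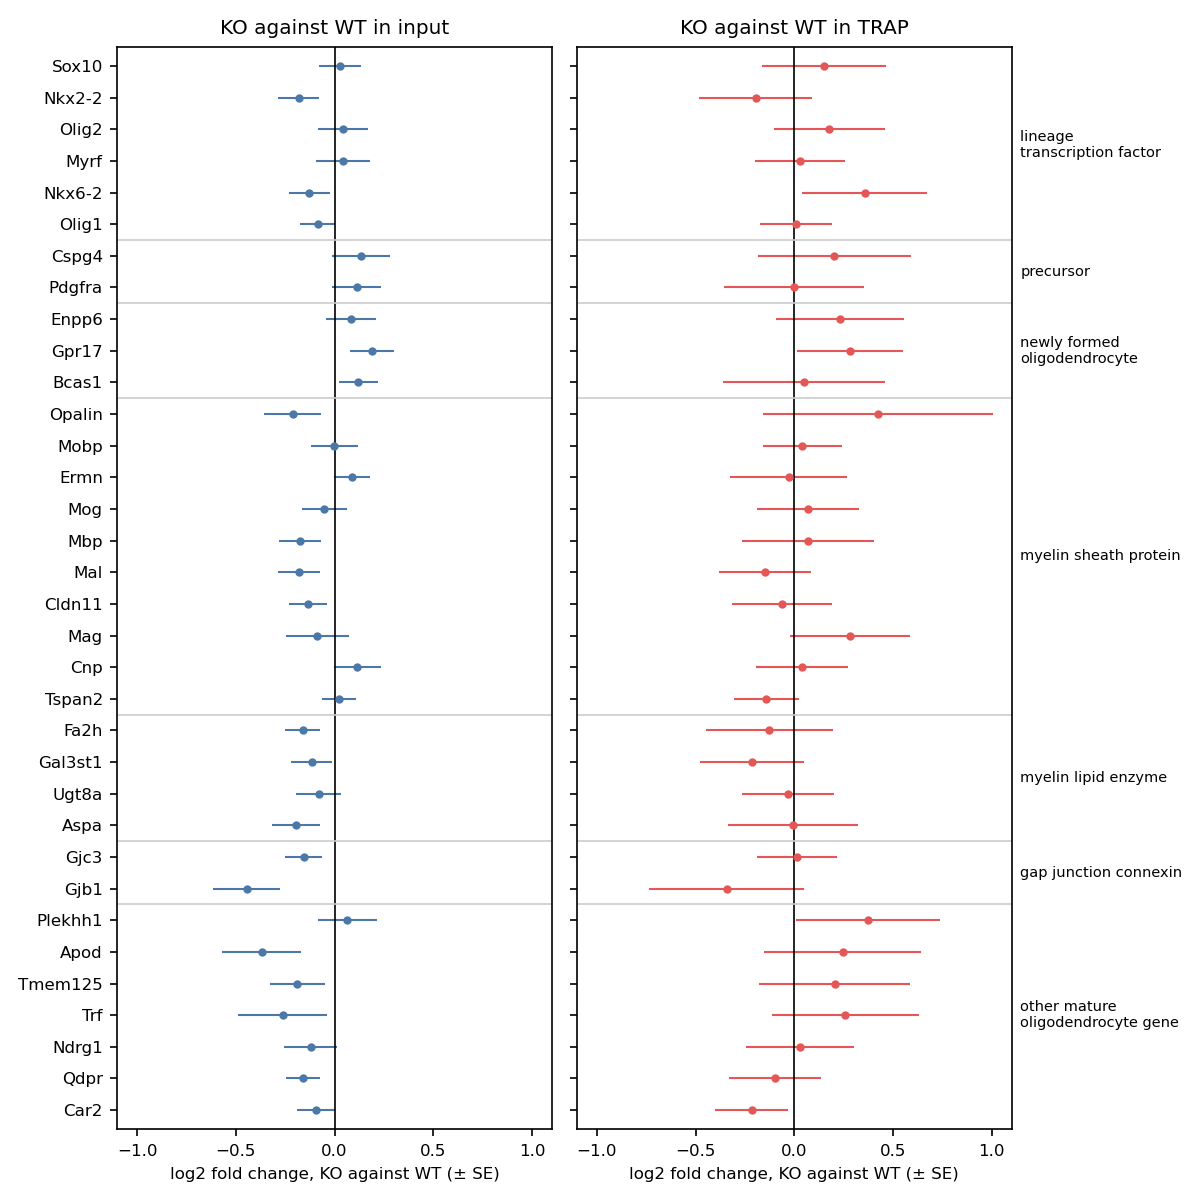
Log2 fold change of KO against WT for the 34 genes in input on the left and TRAP on the right, with standard errors, on the same scale. None of these values passed the threshold, and the standard errors are wider in TRAP, with a median of 0.29 against 0.11.

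In TRAP, 0 of 34 members passed the threshold between genotypes, against 0.00707% of 14145 genes, and 0 had an unadjusted p under 0.05, against 1.50% of all genes (edgeR's quasi-likelihood test). DESeq2's Wald test called 0 members as well, with 0 at an unadjusted p under 0.05. The share of all genes at that p is not given for the Wald test. The median log2 fold change of the members was 0.035 with a median SE of 0.29. Of the 34 members 12 were negative, against 49.7% of all genes. No member had its KO libraries all above or all below the WT libraries, which 1.80% and 2.69% of all genes did. The median rested on single libraries: it was -0.20 without KO 3 and -0.091 without WT 3, with 28 and 22 negative members, and 0.16 without KO 4, with 6 negative. It was 0.11 without WT 1 and 0.14 without WT 2. Without both KO 4 and WT 3 together it was 0.062. Mbp was at 0.068 ± 0.33 and Mog at 0.068 ± 0.26, each with an adjusted p of 0.9997 (edgeR's quasi-likelihood test). Mbp was at -0.42 without KO 3 and Mog at -0.20.

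The 3 members with the smallest p in TRAP were Car2, Nkx6-2 and Gpr17. Car2 was at -0.22 ± 0.19 (unadjusted p = 0.276, adjusted p = 0.9997), with the TRAP values given above, in which KO and WT overlapped. Nkx6-2 in input stood at 20.7, 19.9, 23.5 and 22.4 CPM in the 4 WT libraries and at 19.96, 16.1 and 21.4 CPM in the 3 KO libraries. Nkx6-2 in TRAP stood at 10.1, 8.103 and 4.44 CPM in the 3 WT libraries and at 9.16, 8.91, 13.1 and 7.34 CPM in the 4 KO libraries. The WT and KO values of Nkx6-2 overlapped in TRAP, between the lowest library, WT 3, and the highest, KO 3. Its value was 0.36 ± 0.32 (unadjusted p = 0.292, adjusted p = 0.9997, edgeR's quasi-likelihood test). Gpr17 in input stood at 40.4, 42.1, 45.4 and 56.00 CPM in the 4 WT libraries and at 43.9, 41.5 and 59.3 CPM in the 3 KO libraries. Gpr17 in TRAP stood at 16.7, 10.6 and 10.2 CPM in the 3 WT libraries and at 11.2, 16.5, 20.00 and 13.01 CPM in the 4 KO libraries. Gpr17 overlapped between genotypes as well, at 0.28 ± 0.27 (unadjusted p = 0.321, adjusted p = 0.9997, edgeR's quasi-likelihood test). By role the TRAP medians ran from -0.16 for the connexins to 0.23 for the newly formed genes.

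Whether the genotype difference itself differed between TRAP and input was tested by the interaction over all 14 libraries. Here 0 of 34 members passed the threshold, as did 0% of the 16042 genes, and 0 had an unadjusted p under 0.05, against 2.68% of all genes (edgeR's quasi-likelihood test). DESeq2's Wald test called 0 members, with 0 at an unadjusted p under 0.05. For the Wald test the share of all genes at that p is not given. The median was 0.14 with a median SE of 0.33, and 30 members were positive. Over all genes 53.03% were negative. With 1 library left out, 2 to 15 members were negative and the median ran from 0.036 to 0.29, against 4 negative with all libraries. The highest of these counts were 15 without TRAP WT 3 and 14 without TRAP KO 3, and with quality weights 16 members were negative. The smallest p was that of Nkx6-2, at 0.54 ± 0.34 (unadjusted p = 0.138, adjusted p = 0.999, edgeR's quasi-likelihood test). Both contrasts in this difference share their libraries with the comparisons above.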

How the data were processed

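The authors deposited 1 table of whole-number counts per gene, keyed by Entrez gene number, for 14 libraries of mouse cerebellum. Salmon 0.8.2 and mm10 are named, without a role, per the submitters' processing notes. The counting step, annotation and strand setting are not given in the sources used here. The deposited values were taken as unnormalized counts. Whether they are rounded estimates could not be worked out from the sources used here. Symbols came from RefSeq (GRCm38.p6, 24045 of 24100 genes), and transcript lengths and exon overlaps from GENCODE M21. 12 of the 34 members share exon sequence with a gene on the opposite strand. Library totals ranged from 18.8 to 54.2 M counts; a floor of 3 counts is 0.0553 to 0.1596 CPM and covers counting error only.

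The test was edgeR's quasi-likelihood test (edgeR 4.0.16, R 4.3.3), two-sided, with TMM factors, filterByExpr, sex as a covariate and Benjamini-Hochberg adjustment over all genes tested at 0.05. Genotype was tested in the 7 input and the 7 TRAP libraries, and TRAP against input and the interaction in all 14. SEs are the absolute log2 fold change over the square root of F. Levels are CPM with TMM factors over the 14 libraries (0.724 to 1.32). The test was checked on simulated counts. Alternatives were DESeq2 size factors, library totals, no filter, a mean count of at least 50, DESeq2 1.42.0's Wald test, sample quality weights (limma 3.58.1), no sex covariate, a replicate block, 1 joint fit, and leaving out each library. Leaving out KO 4 and WT 3 of TRAP together was chosen after seeing the data.

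The members and lists were chosen with earlier results of these data known. Values in every library are given for Mbp, Mog, the lowest and highest member of each role by TRAP against input in WT, and the 3 members with the smallest p in each genotype comparison. Of each other list, the lowest and highest gene by TRAP against input in WT are named, except results that are not reported here. Promoter windows were read from the RefSeq table, in which 24 members had an entry.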

Additional observations from a re-analysis of the deposited data

Results flagged for a closer look

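Each of 68 values, 34 members in the 2 groups of 4 libraries, was tested for 1 library apart from the others by Dixon's ratio. The ratio is the gap to the nearest library over the group's range. Both were taken on log2(CPM + 1), so the ratios do not follow from the CPM values printed beside them. Chance alone would mark about 1 in 20, and 5 of the 68 passed the critical value for 4 libraries, all in KO TRAP. The 34 members of a group share the same 4 libraries, so these marks are not independent. The share of all genes that pass this rule is not given here. 3 members were low in KO 4. The ratio was 0.854 for Pdgfra, at 3.097 CPM against 5.97 to 6.63 CPM in the other 3 libraries. It was 0.956 for Cspg4, at 1.15 CPM against 1.895 to 1.94 CPM. For Bcas1 it was 0.842, at 9.42 CPM against 16.4 to 18.2 CPM. The same library was lowest for the granule cell, astroglial and microglial lists within KO TRAP. Car2 and Qdpr, both higher in TRAP than in input, were high in KO 1. Car2 had a ratio of 0.886, at 537 CPM against 433 to 444 CPM, and Qdpr a ratio of 0.8293, at 302 CPM against 261 to 267 CPM.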

How the results depend on the processing

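All 31 lower and 3 higher members in TRAP kept their call and direction under the alternatives run, except as follows. With library totals the member median was -2.62 in WT and -2.28 in KO, and Tspan2 was at -0.046 and -0.12. Without input KO replicate 3, Pdgfra in KO missed the threshold. No genotype or interaction alternative called a member. Over the libraries left out in turn, the genotype value in TRAP ran from -0.42 to 0.34 for Mbp and from -0.20 to 0.26 for Mog. In input it ran from -0.18 to 0.11 for Mog, -0.65 to -0.18 for Gjb1 and -0.70 to 0.028 for Apod. The interaction value of Mog ran from -0.039 to 0.40. With quality weights Nkx6-2 in TRAP was at -0.025, the member median at -0.027, and 3 members had an unadjusted p under 0.05. The share of all genes at that p is not given for this fit. Over all genes, calls in input were 3, with 5 under DESeq2 size factors, 8 with quality weights, 23 without a filter, 294 by DESeq2's Wald test and 1 to 158 with libraries left out, the most without KO 2. In TRAP they were 1, with up to 4 by quality weights. The causes were not tested.

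The labels do not say that a replicate number marks 1 animal, and the numbers were not treated as pairs. Deviations of same-numbered input and TRAP libraries correlated at 0.32, 0.26 and 0.11 in WT and at 0.25, 0.25 and -0.14 in KO (13426 genes). The strongest correlation between an input and a TRAP library, 0.37, was between input KO 3 and TRAP KO 4, which has no input library of its number. TRAP WT 3 correlated best with input WT 4 and TRAP KO 3 with input KO 2. By the labels TRAP KO 3 is male and input KO 2 female, so this pair is not 1 animal. The best correlation therefore need not mark the same animal. With the number as a replicate block, 31 members were lower and 3 higher in TRAP in both genotypes, with a median of -1.76 in WT and -1.43 in KO. The blocked genotype fits called 0 members, with a median of -0.12 in input and 0.19 in TRAP, and 0.23 for the interaction.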

Other observations

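Across the 34 members, the log2 fold change of TRAP against input in WT had a Pearson correlation of 0.17 with the log2 input level and of -0.19 with log2 transcript length. These are across genes of the same libraries, so the points share depth and scaling. Galc, which degrades galactosylceramide, was higher in TRAP at 0.62 ± 0.16 in WT (adjusted p = 0.0031) and 0.41 ± 0.16 in KO (adjusted p = 0.0348, edgeR's quasi-likelihood test), opposite to Ugt8a, which makes that lipid. Galc was named after its values were seen.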
